A study of Mus musculus with 3 samples.

Results

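The 9 homeostatic microglia genes *P2ry12*, *Tmem119*, *Cx3cr1*, *Fcrls*, *Siglech*, *Sall1*, *P2ry13*, *Gpr34* and *Olfml3* were followed in retinal microglia and macrophages of mice at postnatal day 6. They were taken by symbol from the gene table of the count matrices, where all 9 of 9 were found among 33696 genes. The study sequenced single cells of enzymatically digested retinas, enriched with magnetic beads against CD31 for vessel cells and CD11b for myeloid cells, in 3 droplet libraries on a C57BL/6 background. The wild-type (WT) library came from mice that were not littermates of the knockouts. The *Tspan12* KO library came from mice with a knockout of *Tspan12*, a tetraspanin co-receptor of Norrin signaling. The *Ctnnb1* cKO library carried floxed *Ctnnb1*, the gene of beta-catenin, and the inducible *Pdgfb*-iCreERT, which acts in endothelial cells and was switched on with daily tamoxifen from postnatal day 1 on 3 days, so microglia were not the target of the deletion. Each library pooled pups of 1 genotype from a litter, and there was 1 library per genotype. Genotype, litter and library therefore cannot be told apart, no difference between genotypes has a replicate check, and no p-value is given. Whether the WT or *Tspan12* KO pups received tamoxifen is not given in the sources used here. A part of tamoxifen in the *Ctnnb1* cKO differences therefore cannot be told apart either. In endothelial cells *Tspan12* was counted at 95.9 (91.2 to 101) in WT, 84.2 (77.2 to 91.6) in the *Tspan12* KO and 40.1 (36.7 to 43.7) in the *Ctnnb1* cKO library, in counts-per-million (CPM) of all UMIs, and *Ctnnb1* at 523 (512 to 535), 616 (597 to 636) and 443 (431 to 454). Neither gene was near 0 in its own knockout; the counts come from transcript ends, the deleted exons are not given in the sources used here, and the levels therefore do not check the labels, by which the libraries are named throughout.

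Microglia are the resident macrophages of the retina and brain. In healthy tissue they survey their surroundings with moving processes, and the genes studied here are known as the set that marks this state and that falls when microglia are activated, divide or are cultured. P2RY12 and P2RY13 are receptors for ADP released by damaged cells, CX3CR1 is the receptor for the neuronal and endothelial chemokine fractalkine, and GPR34 is a receptor for lysophosphatidylserine. TMEM119, FCRLS and SIGLECH are membrane proteins, OLFML3 is a secreted olfactomedin-like protein, and SALL1 is a zinc finger transcription factor that keeps microglial identity and is absent from most other macrophages.

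Cells were clustered without these 9 genes and named from other markers, so that the genes themselves did not choose the cells. Resting microglia (subclusters with microglial markers and neither the cycling nor the chemokine marker rule met) numbered 274 cells in WT, 347 in the *Tspan12* KO and 1760 in the *Ctnnb1* cKO library. Cycling microglia, led by *Top2a*, *Nusap1* and *Mki67*, numbered 13, 22 and 291, and macrophages, led by *Pf4*, *F13a1* and *Mrc1* in the main subcluster, numbered 1, 19 and 371. Groups under 20 cells are given as values and enter no mean. With doublets removed, no subcluster met the rule for chemokine-high microglia. These were taken by a gate on cells thinned at random to 1000 UMIs (unique molecular identifiers, each marking 1 captured transcript). It asked for at least 5 UMIs over 9 chemokine and cytokine genes and fewer than 2 over 16 cycling genes. The gate held 113 WT, 147 *Tspan12* KO and 1230 *Ctnnb1* cKO cells, against 134, 145 and 471 cells that were resting by the same gate. The gate cut a continuous range, as 9.09%, 7.83% and 12.1% of microglia held 4 or 5 such UMIs. Of the cells in the resting subclusters with enough UMIs, 43.1% in WT, 45.5% in the *Tspan12* KO and 69.4% in the *Ctnnb1* cKO library were chemokine-high, so "resting" in the subclusters includes them.

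Levels are UMIs of a gene summed over the cells of a state and divided by all their UMIs, in CPM, with exact Poisson 95% intervals. Ratios are log2 ratios of 2 such levels with exact conditional binomial 95% intervals. The 3′ kit counts transcript ends, so levels do not scale with gene length, and all intervals cover counting error only. Microglia carried a median of 9654 UMIs in WT, 7430 in the *Tspan12* KO and 3094 in the *Ctnnb1* cKO library, and the libraries stood apart from each other. The joint subclusters of resting microglia were nearly split by library, as 868 of 870 cells of the largest came from *Ctnnb1* cKO and 416 of 417 cells of another from WT and *Tspan12* KO. Mitochondrial genes took 4.14% of the UMIs of resting microglia in WT, 3.24% in the *Tspan12* KO and 1.04% in the *Ctnnb1* cKO library. Pairs of libraries shared 21 to 37 cell barcodes, which touched 0, 1 and 13 microglia and macrophages of the 3 libraries, and leaving those cells out moved no value beyond its interval.

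The stretches around the transcription start are shown for 4 of the genes with the most different levels between *Ctnnb1* cKO and WT, the neighbours *P2ry12* and *P2ry13* and the secreted *Olfml3*, which were lower, and *Cx3cr1*, which was higher. Each is the RefSeq promoter window on GRCm38.p6, 250 bases before to 50 after the start, written 5′ to 3′ on the minus strand, on which all 4 genes lie. The windows are chr3:59262936-59263235 for *P2ry12*, chr3:59210833-59211132 for *P2ry13*, chr3:103737952-103738251 for *Olfml3* and chr9:120068247-120068546 for *Cx3cr1*. Capitals mark AGGAAG on either strand, the core that the myeloid factor PU.1 and other ETS factors bind.
P2ry12: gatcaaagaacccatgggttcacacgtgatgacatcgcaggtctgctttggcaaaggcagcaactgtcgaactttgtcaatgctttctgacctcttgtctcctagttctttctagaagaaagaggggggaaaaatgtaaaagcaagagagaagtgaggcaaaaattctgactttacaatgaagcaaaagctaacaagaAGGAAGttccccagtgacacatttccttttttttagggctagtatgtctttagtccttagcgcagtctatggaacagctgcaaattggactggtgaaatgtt
P2ry13: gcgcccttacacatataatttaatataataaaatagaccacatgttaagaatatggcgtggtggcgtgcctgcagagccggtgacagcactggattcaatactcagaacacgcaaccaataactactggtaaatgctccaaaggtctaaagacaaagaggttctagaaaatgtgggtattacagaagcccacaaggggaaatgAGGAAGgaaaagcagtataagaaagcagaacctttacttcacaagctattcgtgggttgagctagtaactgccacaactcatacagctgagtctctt
Olfml3: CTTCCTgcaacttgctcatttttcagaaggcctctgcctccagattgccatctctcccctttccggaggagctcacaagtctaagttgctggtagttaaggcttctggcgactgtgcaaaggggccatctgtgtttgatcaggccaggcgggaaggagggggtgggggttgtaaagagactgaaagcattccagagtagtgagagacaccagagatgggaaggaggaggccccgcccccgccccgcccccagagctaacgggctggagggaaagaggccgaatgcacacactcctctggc
Cx3cr1: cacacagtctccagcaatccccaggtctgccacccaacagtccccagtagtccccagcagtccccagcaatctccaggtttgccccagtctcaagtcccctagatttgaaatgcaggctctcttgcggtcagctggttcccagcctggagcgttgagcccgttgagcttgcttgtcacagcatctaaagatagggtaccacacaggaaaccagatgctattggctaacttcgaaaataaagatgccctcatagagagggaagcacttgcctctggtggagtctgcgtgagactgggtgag
AGGAAG was present once in each of the *P2ry12*, *P2ry13* and *Olfml3* windows, 4 times in that of *Fcrls*, in 1 of 3 windows of *Sall1*, and in neither the *Cx3cr1* nor the *Siglech* window. It was present in 35.4% of all 32851 windows. The AP-1 motif TGANTCA was in none of the members' windows and in 7.81% of all. Windows were matched for 7 of the 9 genes, not for *Tmem119* and *Gpr34*. *P2ry12*, *P2ry13*, *Fcrls* and *Olfml3* lie on chromosome 3, and *P2ry12* and *P2ry13* both lie within *Med12l*, a Mediator subunit gene on the opposite strand in the GENCODE vM21 annotation. *Gpr34* lies on chromosome X within *Cask*, also on the opposite strand, and the annotated span of *Cx3cr1* overlaps several genes on both strands. Whether the authors' counting used strand is not given in the sources used here, so reads of these overlapping genes may not be fully separated.

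In resting microglia the ADP receptor *P2ry12* stood at 780.1 CPM (746 to 815) in WT, 608 CPM (577 to 640.3) in the *Tspan12* KO and 276 CPM (263 to 290.3) in the *Ctnnb1* cKO library. Its neighbour *P2ry13* followed the same order at a lower level, with 109.7 CPM (97.1 to 123), 87.3 CPM (75.8 to 99.9) and 58.5 CPM (52.4 to 65.04). For both genes WT was highest and *Ctnnb1* cKO lowest, and only for *P2ry13* did the WT and *Tspan12* KO intervals overlap. The lysophosphatidylserine receptor *Gpr34* stood at 671 CPM (639 to 704) in WT and 625 CPM (594 to 657) in *Tspan12* KO, with overlapping intervals, and at 107 CPM (98.7 to 116) in *Ctnnb1* cKO. The fractalkine receptor *Cx3cr1* had the reverse order, with 1501 CPM (1454 to 1550.0) in WT, 2077 CPM (2020.1 to 2136) in the *Tspan12* KO and 3048 CPM (3003 to 3093) in the *Ctnnb1* cKO library, and no intervals overlapped.

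Among the membrane proteins, *Fcrls* stood at 1427 CPM (1381 to 1474) in WT, 1232 CPM (1188 to 1277) in the *Tspan12* KO and 807 CPM (784 to 831) in the *Ctnnb1* cKO library. *Tmem119* stood at 96.96 CPM (85.2 to 109.9), 71.4 CPM (61.1 to 82.9) and 94.4 CPM (86.7 to 103), with *Tspan12* KO lowest and WT and *Ctnnb1* cKO overlapping. *Siglech* stood at 247 CPM (228 to 267), 201 CPM (184 to 220.0) and 217 CPM (205 to 229) in the same order of libraries. The intervals of *Siglech* overlapped between the knockout libraries and between WT and *Ctnnb1* cKO. The secreted *Olfml3* was about level between WT and *Tspan12* KO, at 528 CPM (500.1 to 557) and 568 CPM (538 to 599), and stood at 204 CPM (193 to 216) in *Ctnnb1* cKO. The transcription factor gene *Sall1* was highest in *Tspan12* KO, at 230.5 CPM (212 to 251), against 152 CPM (137 to 168) in WT and 124 CPM (115 to 134) in *Ctnnb1* cKO. *Sall1* was thus the single gene of the 9 for which *Tspan12* KO stood above both other libraries with separate intervals.

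**Figure D1:**
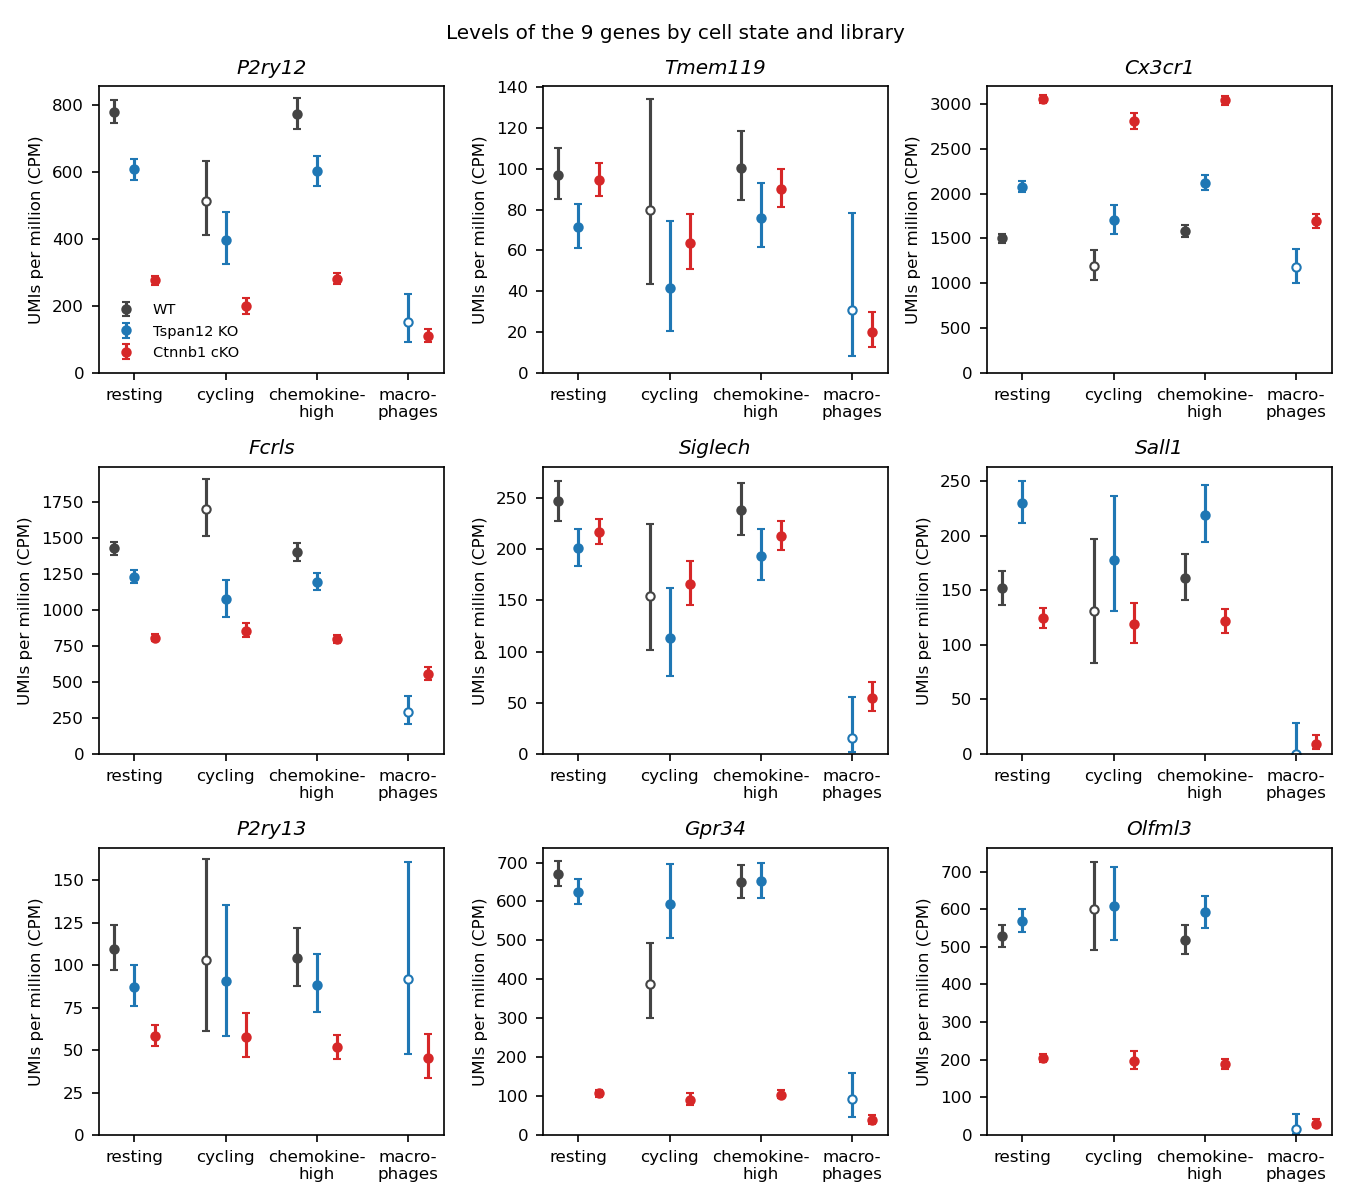
Each panel plots the level of 1 gene in CPM (vertical axis, linear from 0) by cell state (horizontal axis) in the WT, Tspan12 KO and Ctnnb1 cKO libraries, with exact Poisson 95% intervals; open points are groups under 20 cells, and the WT library had too few macrophages to plot. Gpr34 sits near 671 CPM in WT and 107 in Ctnnb1 cKO resting microglia, while Cx3cr1 runs the other way, and Sall1, Siglech and Olfml3 are lowest in macrophages.

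The libraries were then compared in resting microglia to see whether the genes differed as a set. Between *Tspan12* KO and WT they differed in both directions, and their sum was 5701 CPM (5606 to 5797) against 5512 CPM (5421 to 5605), a log2 ratio of 0.05 (0.01 to 0.08), which turned to −0.02 with TMM scaling. *Cx3cr1* and *Sall1* were higher in *Tspan12* KO, by 0.47 (0.41 to 0.53) and 0.60 (0.41 to 0.79) on the log2 scale. *P2ry12*, *Tmem119*, *P2ry13*, *Siglech* and *Fcrls* were lower, at −0.36 (−0.46 to −0.26), −0.44 (−0.73 to −0.15), −0.33 (−0.60 to −0.07), −0.29 (−0.47 to −0.12) and −0.21 (−0.28 to −0.14). *Gpr34* at −0.10 (−0.20 to −0.0008) and *Olfml3* at 0.11 (−0.005 to 0.22) were the closest to 0. All 9 genes had at least 50 UMIs over the libraries compared. None of the 9 reached a 2-fold difference, which 3.66% of 8473 genes with at least 50 UMIs did in either direction. The median of the 9 was −0.21, against 0.08 over all genes tested. The *Sall1* difference was 1.09 when every cell was thinned to 1000 UMIs.

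Between *Ctnnb1* cKO and WT the sum hid larger and opposite differences. It was 4937 CPM (4880.2 to 4995) in *Ctnnb1* cKO, a log2 ratio of −0.16 (−0.19 to −0.13), while single genes ranged from −2.65 to 1.02. *Gpr34* was lower, at −2.65 (−2.78 to −2.51), or 6.27-fold, *P2ry12* at −1.50 (−1.59 to −1.40) and *Olfml3* at −1.37 (−1.48 to −1.26) on the log2 scale. *P2ry13* at −0.91 (−1.14 to −0.67) and *Fcrls* at −0.82 (−0.88 to −0.76) were lower by less than 2-fold. *Sall1* at −0.29 (−0.47 to −0.10) and *Siglech* at −0.19 (−0.33 to −0.05) were slightly lower, and *Tmem119* did not differ beyond counting error at −0.04 (−0.26 to 0.19). *Cx3cr1* was higher by 1.02 (0.97 to 1.07), or 2.03-fold. *Cx3cr1* took 27.2% of the UMIs of the 9 genes in WT, 36.4% in the *Tspan12* KO and 61.7% in the *Ctnnb1* cKO library. Of the 9 genes 4 reached 2-fold, 3 lower and 1 higher, against 15.9% of 9874 genes tested, and their median was −0.82 against 0.04 over all. *Cx3cr1* missed 2-fold with doublets kept (0.82) and without 2 subclusters led by genes of other cells (0.96), and *P2ry13* passed it with doublets kept (−1.08) and at most 5% mitochondrial UMIs (−1.03).

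The genes with the largest differences in *Ctnnb1* cKO were also compared with WT in cells split by state. *Gpr34* in *Ctnnb1* cKO was −2.65 in resting, −2.64 in chemokine-high and −2.50 in cycling cells by gate. *P2ry12* was −1.57, −1.46 and −1.60 in the same 3 states. *Cx3cr1* was 1.13, 0.94 and 1.19. Among genes with smaller differences, *P2ry13* was −0.82, −1.01 and −0.46, *Sall1* −0.17, −0.41 and 0.05, and *Tmem119* 0.12, −0.16 and −0.10. *Fcrls* stood at 823, 796 and 877 CPM in *Ctnnb1* cKO, against 1470, 1403 and 1548 CPM in WT. These values use 1 WT library, so the 3 states do not repeat the comparison. By gate 41.1% of the microglia were chemokine-high in WT, 42.6% in the *Tspan12* KO and 61.1% in the *Ctnnb1* cKO library.

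The *Ctnnb1* cKO library also differed from WT in cells other than microglia. The share of genes with at least 50 UMIs past 2-fold was 14.8% in Müller glia, 11.4% in cones, 19.3% in amacrine cells, 19.0% in bipolar cells, 22.8% in rods and 20.8% in endothelial cells, the class in which the Cre acts. In *Tspan12* KO the same shares ran from 2.06% to 6.27%. The *Ctnnb1* cKO shares rest on 453, 206, 252, 109, 68 and 2713 cells in the order given. The *Tspan12* KO library held 2916 rods and 652 bipolar cells. The minimum of 50 UMIs counts both sides together, so a gene can pass it with few UMIs on the side with few cells. Counting error alone can then give 2-fold differences, and its part in these shares was not tested. In resting microglia the summed markers of other cells differed too. All 8 endothelial markers were detected in every library and summed to 164 CPM in WT, 88.9 in the *Tspan12* KO and 343 in the *Ctnnb1* cKO library. The 5 erythrocyte markers, of which 4, 5 and 5 were detected, summed to 60.8, 393 and 535 CPM. The 10 rod markers, of which 10, 9 and 10 were detected, summed to 273, 564 and 169.6 CPM. The 13 macrophage markers, of which 9, 11 and 13 were detected, summed to 203, 271 and 339 CPM, against 14454 in the *Ctnnb1* cKO macrophages. The part of these levels and of depth in the differences above was not tested.

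**Figure D2:**
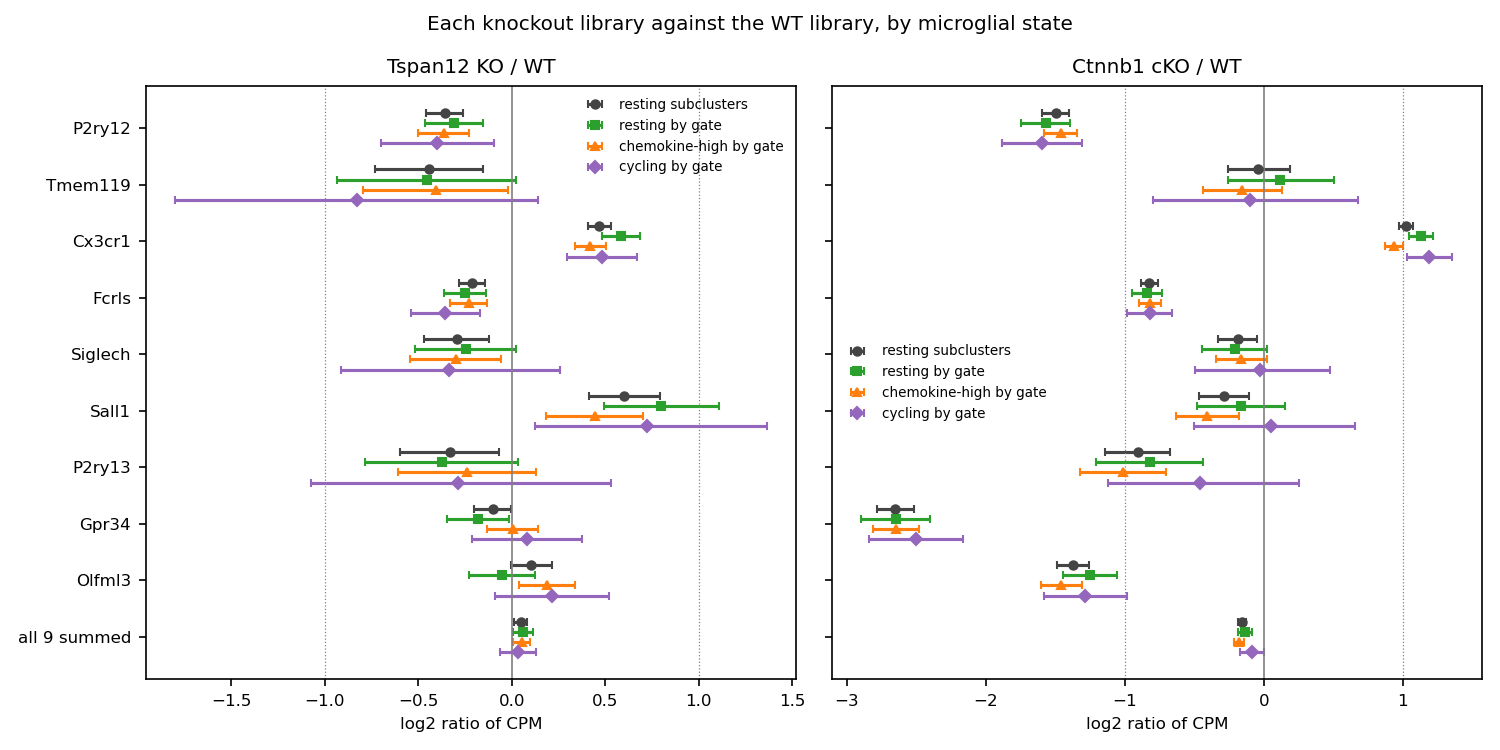
Log2 ratios of CPM (horizontal axis) of each gene and of their sum in Tspan12 KO (left) and Ctnnb1 cKO (right) over WT, with exact conditional binomial 95% intervals; dotted lines mark 2-fold, and symbols stand for the resting subclusters and the 3 gated states. In Ctnnb1 cKO the 4 points of Gpr34 lie between −2.65 and −2.50 and those of Cx3cr1 near 1, while in Tspan12 KO every point lies within 2-fold.

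The levels could reflect few cells with many UMIs, so cells with at least 1 UMI were counted at an equal depth of 1000 UMIs per cell, which left out 12 WT, 24 *Tspan12* KO and 38 *Ctnnb1* cKO microglia. *P2ry12* was then found in 51.3% (45.2 to 57.3%) of the microglia in WT, 39.4% (34.2 to 44.8%) in the *Tspan12* KO and 20.3% (18.5 to 22.1%) in the *Ctnnb1* cKO library, with exact Clopper-Pearson 95% intervals. *Gpr34* was found in 45.5% (39.5 to 51.5%), 44.1% (38.7 to 49.5%) and 8.35% (7.17 to 9.64%), and *Olfml3* in 37.1% (31.4 to 43.1%), 38.6% (33.4 to 43.9%) and 16.4% (14.8 to 18.1%). For these 3 genes the share in *Ctnnb1* cKO lay below both other libraries with separate intervals, as the level did. *Cx3cr1* was found in 66.9% (61 to 72.4%), 78.8% (74.1 to 83%) and 91% (89.6 to 92.2%) of microglia, the same order as its level. *Sall1* was found in 10.2%, 20.6% and 10.7%, and *Tmem119* in 9.09%, 7.54% and 8.49%. *Fcrls* was found in 73.1%, 69.3% and 51.5%, *Siglech* in 20.7%, 15.4% and 18.8%, and *P2ry13* in 9.09%, 8.7% and 5.51%. Without thinning, at the unequal depths given above, *P2ry12* was in 83.6%, 82.1% and 45.5% of all microglia, *Gpr34* in 86.8%, 84% and 22.8%, *Olfml3* in 82.6%, 82.1% and 39.2%, and *Cx3cr1* in 85.4%, 92.4% and 97.5%. For the other genes the unthinned share ran from 16.4% (*P2ry13* in *Ctnnb1* cKO) to 94.8% (*Fcrls* in WT). A thinned microglial cell held a mean of 3.23 of the 9 genes in WT, 3.22 in the *Tspan12* KO and 2.31 in the *Ctnnb1* cKO library. At least 4 of the 9 were found in 44%, 46.1% and 13.2% of cells, and none in 2.91%, 3.48% and 2.43%.

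Free RNA in the droplets gives some UMIs in cells that do not express a gene, and endothelial cells served as its measure. At the same 1000 UMIs, from medians before thinning of 15785, 14410 and 3345 UMIs in endothelial cells, *Cx3cr1* was found in 1.9% of these cells in WT, 1.44% in the *Tspan12* KO and 10% in the *Ctnnb1* cKO library. Each of the other 8 genes was in at most 1.79% of them. *Cx3cr1* in *Ctnnb1* cKO endothelial cells stood at 100.5 CPM, against 3048 in the resting microglia of that library. All microglial shares lay above the endothelial share of the same gene and library.

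**Figure D3:**
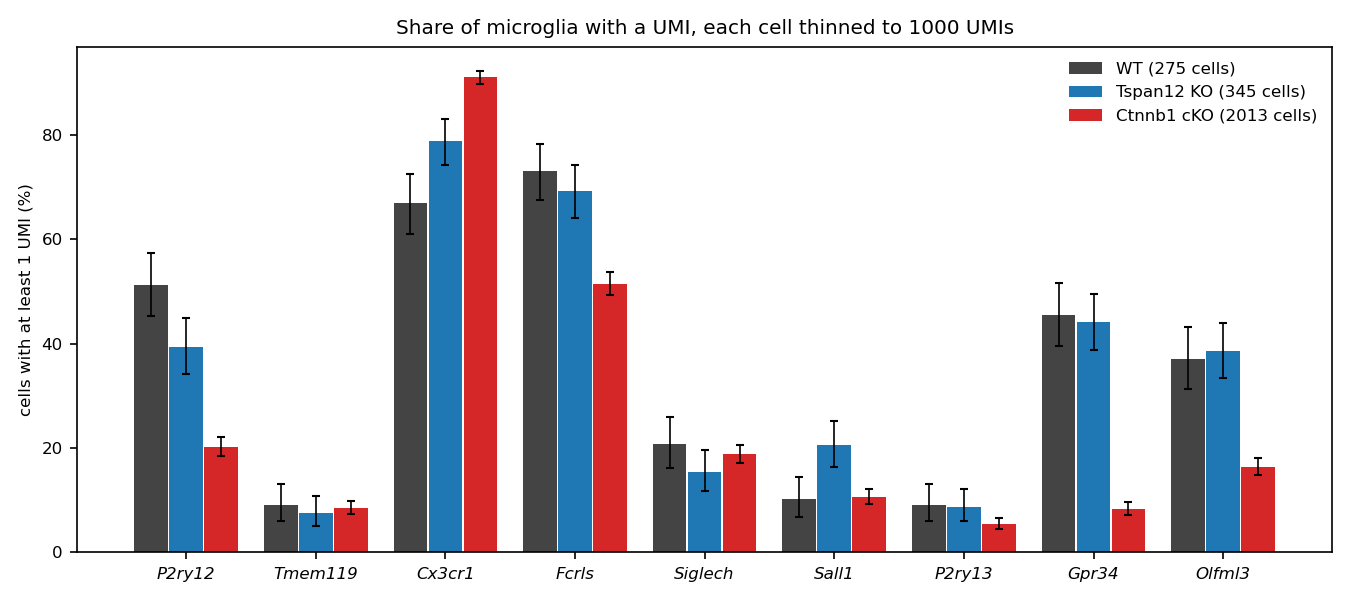
Bars give the percentage of microglia (vertical axis, from 0) with at least 1 UMI of each gene after thinning every cell to 1000 UMIs, with exact Clopper-Pearson 95% intervals, in 275 WT, 345 Tspan12 KO and 2013 Ctnnb1 cKO cells. The Ctnnb1 cKO bars are the lowest for P2ry12, Fcrls, P2ry13, Gpr34 and Olfml3 and the highest for Cx3cr1.

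Cycling microglia were set against the resting microglia of the same library, since dividing cells are known to turn down part of this set. Their sum was lower, at −0.25 (−0.33 to −0.16) in the *Tspan12* KO and −0.12 (−0.16 to −0.08) in the *Ctnnb1* cKO library, a mean log2 ratio of −0.18 ± 0.09 (SD, n = 2 libraries), and the 13 WT cells gave −0.18 (−0.28 to −0.08). *P2ry12* was lower in all 3 libraries, at −0.60 (−0.92 to −0.30) in WT, −0.61 (−0.91 to −0.33) in the *Tspan12* KO and −0.48 (−0.66 to −0.29) in the *Ctnnb1* cKO library. *Siglech* was lower as well, at −0.68 (−1.29 to −0.12), −0.83 (−1.41 to −0.29) and −0.39 (−0.60 to −0.19), and *Cx3cr1* at −0.33 (−0.54 to −0.13), −0.29 (−0.43 to −0.15) and −0.12 (−0.17 to −0.07). *Tmem119* was lower in *Ctnnb1* cKO, at −0.57 (−0.91 to −0.25), while its 14 UMIs in WT and 11 in *Tspan12* KO cycling cells gave −0.28 (−1.17 to 0.50) and −0.78 (−1.81 to 0.10), which do not show a difference at this depth. *Gpr34* was −0.79 (−1.16 to −0.44) in WT, −0.07 (−0.32 to 0.17) in the *Tspan12* KO and −0.23 (−0.52 to 0.04) in the *Ctnnb1* cKO library, and *Sall1* −0.21 (−0.88 to 0.40), −0.37 (−0.83 to 0.06) and −0.06 (−0.31 to 0.18). *Olfml3* at 0.18, 0.10 and −0.05 and *P2ry13* at −0.09, 0.06 and −0.02 did not differ beyond counting error in any library. *Fcrls* was 0.25 in WT, −0.20 in the *Tspan12* KO and 0.09 in the *Ctnnb1* cKO library, of which the first became −0.01 and the last −0.07 with TMM scaling. No gene of the 9 reached 2-fold, against 10.7% of 6784 genes tested in the *Tspan12* KO and 7.37% of 9548 in the *Ctnnb1* cKO library. In *Tspan12* KO other settings passed it, *Siglech* at −1.01 with TMM scaling, *P2ry12* at −1.02 when thinned and *Tmem119* at −1.19 as a mean over cells. At the other end of the settings *Siglech* was −0.35, *P2ry12* −0.36 and *Tmem119* 0.29, so the sign of *Tmem119* depends on the setting. The medians of the 9 were −0.29 and −0.12, against 0.04 and 0.02 over all genes. TMM scaling lowered every gene of the cycling cells by 0.19 in the *Tspan12* KO and 0.16 in the *Ctnnb1* cKO library, and with doublets kept the sum turned to 0.07 in *Ctnnb1* cKO. Over all settings *P2ry12* in *Ctnnb1* cKO ran from −0.64 to −0.08, *Siglech* from −0.55 to −0.07 and *Tmem119* from −0.73 to −0.14. The size of these 3 differences thus depends on the processing beyond the intervals given.

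By gate all 3 libraries had at least 20 cycling cells. The cycling gate kept chemokine-high cells and the resting gate did not, so this contrast mixes the 2 states. Of the chemokine genes tested, 4 of 7 in WT, 5 of 7 in *Tspan12* KO and 7 of 9 in *Ctnnb1* cKO were higher by 2-fold. The shares over all genes tested were 5.98%, 3.52% and 5.68%. *P2ry12* was lower in cycling cells by gate, at −0.38, −0.47 and −0.41, and *Siglech* at −0.69, −0.77 and −0.50. *Fcrls* was 0.07, −0.03 and 0.09, each with an interval that holds 0, unlike the subcluster values of WT and *Tspan12* KO, and *Gpr34* was −0.28, −0.02 and −0.13.

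Chemokine-high microglia, which carry transcripts such as *Ccl3*, *Ccl4* and *Tnf* that microglia are known to switch on when disturbed, including by warm enzymatic digestion, held the sum of the 9 genes at nearly the level of resting cells. Their sum was 5532 CPM (5411 to 5655) against 5532 CPM (5386 to 5681) in WT, 5739 CPM (5606 to 5874) against 5765 CPM (5612 to 5921) in the *Tspan12* KO and 4884 CPM (4817 to 4952) against 5032 CPM (4922 to 5143) in the *Ctnnb1* cKO library. The mean log2 ratio was −0.02 ± 0.02 (SD, n = 3 libraries), while the summed chemokine genes used for the gate went from 2144 to 14897 CPM in WT. In WT the chemokine-high cells had a median of 12241 UMIs, against 5740.5 in cells resting by gate. The medians were 8279 against 6659 in the *Tspan12* KO and 3017.5 against 3008 in the *Ctnnb1* cKO library. The part of depth in these ratios was not tested. *P2ry12* stood at −0.03 (−0.16 to 0.11), −0.08 (−0.24 to 0.08) and 0.08 (−0.08 to 0.25), and *Tmem119* at 0.10 (−0.29 to 0.50), 0.15 (−0.32 to 0.63) and −0.18 (−0.45 to 0.10). Thinned to 1000 UMIs, *Tmem119* in WT was 1.61, past 2-fold, with a UMI in 17 of 113 chemokine-high and 7 of 134 resting cells. *Cx3cr1* was 0.17 (0.08 to 0.27) in WT, 0.01 (−0.08 to 0.09) in the *Tspan12* KO and −0.01 (−0.06 to 0.03) in the *Ctnnb1* cKO library, and the WT value turned to −0.02 without 2 subclusters led by genes of other cells. *P2ry13* and *Olfml3* were lower in *Ctnnb1* cKO, at −0.44 (−0.77 to −0.09) and −0.33 (−0.51 to −0.14), while *Olfml3* in *Tspan12* KO was 0.12 (−0.04 to 0.29). No gene of the 9 reached 2-fold, against 2.65% of 6102 genes tested in WT, 1.47% of 6004 in the *Tspan12* KO and 0.89% of 8768 in the *Ctnnb1* cKO library. Their medians were −0.07, −0.05 and −0.08, against 0.04, −0.01 and −0.02 over all genes. *Siglech* was −0.16, −0.22 and −0.11, *Fcrls* −0.07, −0.05 and −0.05, *Gpr34* −0.07, 0.12 and −0.06 and *Sall1* 0.16, −0.20 and −0.08, all with intervals that hold 0. In *Ctnnb1* cKO the sum turned from −0.04 (−0.08 to −0.01) to 0.09 with TMM scaling, which raised every gene of the chemokine-high cells by 0.14, and to 0.36 with doublets kept.

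Macrophages of *Ctnnb1* cKO held 8 of the 9 genes below their level in resting microglia, by unequal amounts. Their sum was 2558 CPM (2466 to 2652), a log2 ratio of −0.95 (−1.004 to −0.89). *Sall1* was counted at 11 UMIs or 9.57 CPM (4.78 to 17.1), a log2 ratio of −3.70 (−4.71 to −2.85). *Olfml3* followed with 29.6 CPM and −2.79 (−3.32 to −2.30), *Tmem119* with 20.02 CPM and −2.24 (−2.91 to −1.64), and *Siglech* with 54.8 CPM and −1.98 (−2.37 to −1.62). *Gpr34* at −1.45 (−1.92 to −1.01) and *P2ry12* at −1.31 (−1.58 to −1.05) also passed 2-fold. *Cx3cr1* at 1692 CPM and *Fcrls* at 556 CPM were lower, at −0.85 (−0.92 to −0.78) and −0.54 (−0.66 to −0.42), and *P2ry13* at −0.37 (−0.82 to 0.05) did not differ beyond counting error. Thus 6 of the 9 genes were lower by 2-fold or more, against 14.5% of 9425 genes tested in either direction, and their median was −1.45 against −0.05 over all. With doublets kept *P2ry12* was −0.63, no longer 2-fold, and *Sall1* was −2.68. With the 9 genes used in clustering *Siglech* was −3.04 and *Tmem119* −3.19. The 371 macrophages include a subcluster of 67 cells that met only the interferon rule among myeloid cells. It held 37 of the 63 *Siglech* and 13 of the 23 *Tmem119* UMIs and is described below.

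The 19 macrophages of *Tspan12* KO are given as values. They held 0 UMIs of *Sall1*, which allows up to 22.97 CPM at a floor of 3 counts, 2 UMIs of *Olfml3* and 2 of *Siglech*. *Cx3cr1* was counted at 1179 CPM (1000.3 to 1381) and *P2ry12* at 153 CPM (93.5 to 237). *P2ry13* stood at 91.9 CPM (47.5 to 161), about its level in the resting microglia of that library. *Fcrls* at 291 CPM and *Gpr34* at 91.9 CPM were low too, with log2 ratios of −2.08 (−2.58 to −1.62) and −2.77 (−3.72 to −1.96), and *Tmem119* had 4 UMIs. The single WT macrophage is not described.

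**Figure D4:**
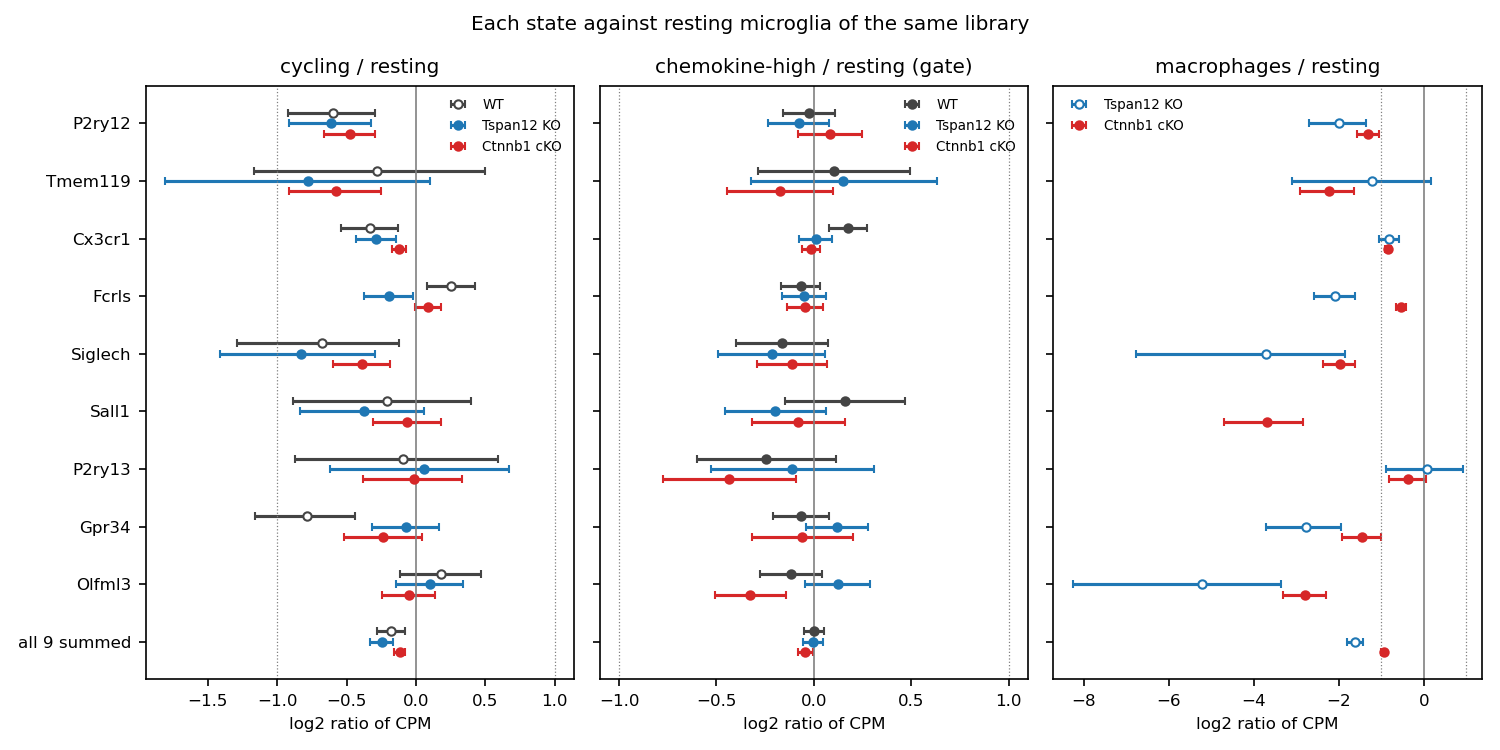
Log2 ratios of CPM (horizontal axes, which differ in range) of cycling microglia (left), chemokine-high microglia by gate (middle) and macrophages (right) over resting microglia of the same library, with exact conditional binomial 95% intervals; dotted lines mark 2-fold and open points are groups under 20 cells, with no point where a gene had 0 UMIs. The chemokine-high points lie close to 0, and in macrophages Sall1, Olfml3, Siglech and Tmem119 lie far below it while P2ry13 does not.

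The subclusters showed how the genes varied among cells of a state. Within the resting microglia of *Ctnnb1* cKO, a subcluster of 79 cells was led by *Ccl5*, *Hmox1*, *Gpnmb*, *Lgals3* and the hemoglobin genes *Hba-a1*, *Hbb-bt* and *Hbb-bs*. It held the set at 2625 CPM, against 4768 to 5401 in the 3 subclusters of 302 cells or more. *P2ry12* stood at 85.2 CPM there and *Siglech* at 42.6, against 193 to 440.1 and 202 to 256 in those 3. A further subcluster, with a median of 1863 UMIs and led by hemoglobin and mitochondrial genes, held 97 WT, 70 *Tspan12* KO and 26 *Ctnnb1* cKO cells. *Cx3cr1* stood in it at 628 CPM in WT and 1120.2 in *Tspan12* KO, against 1569 and 2165 in the main subcluster of these libraries. *Fcrls* did not follow in WT and *Tspan12* KO, with 1580.0 and 1120.2 CPM against 1415 and 1261. The 26 *Ctnnb1* cKO cells held the set at 2379 CPM, *Cx3cr1* at 1117 and *Fcrls* at 577 CPM (394 to 814), with 2 UMIs of *P2ry12*. The 3 large resting subclusters of that library held *Cx3cr1* at 3128 to 3188 CPM and *Fcrls* at 601 to 972 CPM. Among macrophages of *Ctnnb1* cKO, the 84 cells led by *Cd163* and *Lyve1* held the set at 874 CPM, with *Cx3cr1* at 471. The 220 cells led by *Pf4* and the 67 led by *Ifit2*, *Cd74* and other interferon and antigen presentation genes held it at 2897 and 3597 CPM. The latter met the macrophage rule against all cells but only the interferon rule among myeloid cells, and its summed macrophage markers stood at 2095 CPM against 17125 and 15315 in the others. It held 37 of the 63 *Siglech* UMIs of the macrophages, 13 of the 23 of *Tmem119*, 15 of the 34 of *Olfml3* and 5 of the 11 of *Sall1*. *Siglech* stood at 213 CPM there, against 27.7 and 23.7 in the other macrophage subclusters, and *Tmem119* at 74.8 against 9.69 and 11.9. The subclusters differ in depth and library, and these values are a description.

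Other genes of the homeostatic program gave a frame for the 9. Of 28 such genes, among them the TGF-beta receptors that maintain microglia and the lineage factors *Spi1*, *Irf8* and *Mef2c*, 27 had at least 50 UMIs. In *Tspan12* KO against WT none reached 2-fold, beside 3.66% of all genes tested in either direction, with a median of 0.07. The largest differences were the integrin *Itgb5* at 0.76 (0.65 to 0.87), *Irf8* at 0.61 (0.48 to 0.73), *Cst3* at −0.60 (−0.63 to −0.58) and *Tgfbr2* at 0.59 (0.41 to 0.77). In *Ctnnb1* cKO 3 of 27 were lower by 2-fold and none higher, beside 15.9% of all genes tested in either direction, with a median of −0.10: *Crybb1* at −1.64 (−1.84 to −1.45), *Adgrg1* at −1.45 (−1.80 to −1.10) and *Rhob* at −1.05 (−1.11 to −0.98), followed by *Cd33* at −0.91 (−1.09 to −0.72). In cycling cells 1 was lower by 2-fold in *Tspan12* KO, *Adgrg1*, and none in *Ctnnb1* cKO, with medians of −0.52 and −0.32. The shares over all genes tested in either direction were 10.7% and 7.37%. None reached 2-fold in chemokine-high cells of any library, beside 2.65%, 1.47% and 0.89% of all genes tested in WT, *Tspan12* KO and *Ctnnb1* cKO. In macrophages 11 of 27 were lower by 2-fold and none higher, beside 14.5% of all genes tested, with a median of −0.85. Among the largest were the protease inhibitor *Serpine2* at −3.69 (−4.14 to −3.28), the adhesion receptor *Adgrg1* at −2.65 (−4.55 to −1.26) and the matrix protein gene *Sparc* at −2.46 (−2.60 to −2.32).

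The relatives of the ADP receptors were not lower with *P2ry12* in *Ctnnb1* cKO. Of 9 purinergic and neighbouring receptor genes 3 had enough UMIs, and in *Ctnnb1* cKO resting microglia *P2rx7*, an ATP-gated channel, was higher at 1.27 (0.98 to 1.57), with the UDP receptor *P2ry6* at 0.67 (0.51 to 0.83) and the channel *P2rx4* at 0.43 (0.20 to 0.68). In *Tspan12* KO the same genes were at 0.51, 0.14 and −0.14, and in *Ctnnb1* cKO macrophages against resting microglia at 1.68, 0.41 and 0.86. Of 8 ligands and enzymes that act on these cells 4 had enough UMIs in resting microglia, and *Csf1*, a growth factor of microglia, was at 0.78 (0.65 to 0.92), *Tgfb1* at 0.16, *Tgfb2* at 0.65 and the ectonucleotidase *Entpd1* at −0.21 in *Ctnnb1* cKO. In *Tspan12* KO 1 of these 4 passed 2-fold, beside 3.66% of all genes tested in either direction. It was *Tgfb2* at 1.69 (0.76 to 2.72), which stood at 5.17 and 16.7 CPM in WT and *Tspan12* KO. The fractalkine gene *Cx3cl1* was counted in endothelial cells at 10.6 CPM in WT, 21.6 in the *Tspan12* KO and 33.1 in the *Ctnnb1* cKO library.

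Genes of the phagocytic developmental state, which microglia are known to use in young tissue, differed in both directions. In *Ctnnb1* cKO 3 of 15 were higher by 2-fold and 1 lower, beside 15.9% of all genes tested in either direction, with a median of 0.11: *Gpnmb* at 3.77 (2.38 to 5.67), *Itgax* at 1.35 (0.997 to 1.71) and *Lgals3* at 1.05 (0.79 to 1.32), and the glucan receptor *Clec7a* at −4.39 (−4.91 to −3.91), from 141 CPM in WT to 6.71. In *Tspan12* KO none of 14 reached 2-fold, with a median of 0.06. Of 11 immediate early genes 1 was lower by 2-fold in each knockout library, *Nr4a1* at −1.07 (−1.38 to −0.77) in the *Tspan12* KO and *Jund* at −1.01 (−1.06 to −0.96) in the *Ctnnb1* cKO library. The shares over all genes tested in either direction were 3.66% and 15.9%. The medians of the list were −0.48 and −0.69, and its sum in resting microglia was 19873 CPM in WT, 15897 in the *Tspan12* KO and 12572 in the *Ctnnb1* cKO library.

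In cell classes with at least 20 cells other than microglia, macrophages and neutrophils, the 9 genes stood at 127 CPM or below. In WT rods, cones, amacrine and bipolar cells, Müller glia and endothelial cells *Cx3cr1* stood at 6.03 to 21.1 CPM, and in the same classes of *Ctnnb1* cKO at 85.9 to 113 CPM. Cells named neutrophils, 23 in WT and 105 in *Ctnnb1* cKO, held *Cx3cr1* at 545 and 817 CPM and *P2ry12* at 321 and 68.4 CPM. Over 40 class and library groups, the genes whose level (log2 of CPM plus 5) was most alike to the summed 9 were the lysosomal protease gene *Ctsb* (Pearson r = 0.981), *Cd68* (0.979), *Rgs10* (0.977), *Ccl4* (0.977) and *Trem2* (0.975), among 10522 genes compared. The groups share libraries and free RNA, and r is given as a description. The 9 genes are part of the sum, *Cx3cr1* with the shares of its UMIs given above, and their own r ran from 0.846 for *Sall1* to 0.977 for *Cx3cr1*.

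**Figure D5:**
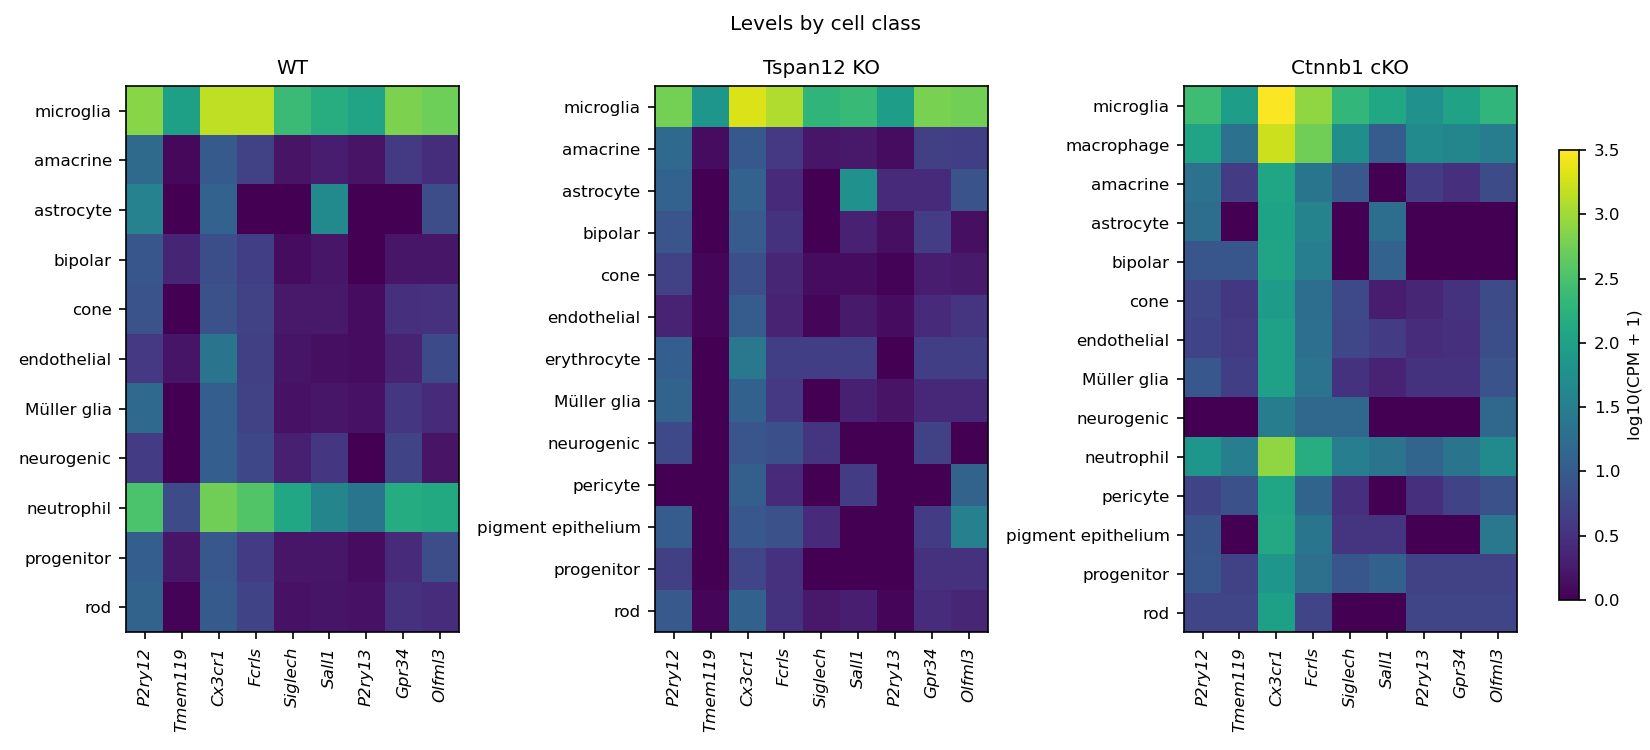
Color gives the level of each gene (columns) as log10 of CPM plus 1 in each cell class with at least 20 cells (rows) of the WT, Tspan12 KO and Ctnnb1 cKO libraries. Each gene is highest in the microglia of its library, the Ctnnb1 cKO macrophages hold mainly Cx3cr1 and Fcrls, the Cx3cr1 column of Ctnnb1 cKO is raised to about 100.5 CPM over most classes, and Sall1 reaches 57.3 CPM in astrocytes of Tspan12 KO.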

How the data were processed

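Single retinal cells of 3 libraries were profiled by the authors with a 10x Chromium 3′ kit, v3 per the labels and a later version per the study's methods, and the deposited matrices hold whole UMI counts per gene and barcode, not normalized (9951 WT, 14426 *Tspan12* KO and 9151 *Ctnnb1* cKO barcodes with 92684519, 137114957 and 37008362 UMIs). The file headers name Cell Ranger 8.0.1 and the submitters' processing notes GRCm39, while the study's methods name another version and the mm10 reference, so the build is not settled and no gene coordinates are given from the files. Strand and intron settings are not given in the sources used here.

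Cells with at least 500 UMIs and 250 genes and at most 15% mitochondrial UMIs were kept. Scrublet's own threshold called 0, 1 and 323 doublets, so the cells with the highest scores were removed at 0.8% per 1000 cells, which took 760, 1656 and 665 and left 8989, 12732 and 8451 cells. Cells were clustered with Scanpy 1.11.5 and Leiden on 2000 variable genes without the 9 genes, and classes and subclusters needed 3 markers from fixed lists. The planned gate stood in for chemokine-high subclusters because none met the marker rule with doublets removed. With no doublets removed a subcluster did meet it. Its cells were then not counted in the resting subclusters, so that setting also changes which cells are resting. Counts were summed per library and state. A difference is called past the fold at 2-fold with at least 50 UMIs over both sides. With 1 library per genotype no test was possible, and intervals cover counting error only. In simulated counts the intervals held the true ratio for 95.8% of 8253 genes in the *Tspan12* KO comparison with WT. The share was 95.5% of 9698 in that of *Ctnnb1* cKO and 96.0% of 9272 in that of macrophages. The counts were Poisson draws without variation between cells, pups or libraries, so this checks the calculation only. Of genes set to a log2 ratio of −2, 80%, 84% and 90% were called past the fold, and of those set to 2, 100% in each.

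The members, the marker lists and the 5 other gene lists were chosen with earlier results of these data known. All 9 genes are named throughout, at most 4 genes are named from each other list, those with the largest ratios, and 5 genes by likeness; 1 list gene that the rule names is not reported here, and further list genes named with their values (*P2ry6*, *P2rx4*, *Csf1*, *Tgfb1*, *Entpd1* and the ligand gene *Cx3cl1*) were chosen after their values were seen. Alternatives were TMM scaling (edgeR 4.0.16, R 4.3.3), the mean over cells, thinning to 1000 UMIs, no count minimum, other doublet, mitochondrial and clustering settings, and the 9 genes kept in clustering. Leaving out 2 subclusters led by genes of other cells and leaving out shared barcodes were chosen after seeing the data.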

Additional observations from a re-analysis of the deposited data

Results flagged for a closer look

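These 3 values were picked out because a gene of the set was counted in a cell class that the comparisons do not use, at more UMIs per *Cx3cr1* UMI than in the microglia of the same library. *Sall1* stood at 57.3 CPM in the 48 astrocytes of *Tspan12* KO, from 34 UMIs, which is 4.86 UMIs per *Cx3cr1* UMI against 0.110 in microglia. WT astrocytes held 8 *Sall1* UMIs and 2 of *Cx3cr1*. *Olfml3* stood at 31.9 CPM in the pigment epithelium class of *Tspan12* KO, from 20 UMIs, which is 4 per *Cx3cr1* UMI against 0.281 in microglia, and the same class of *Ctnnb1* cKO held 0.189 against 0.0677. *P2ry12* stood at 19.9 CPM in the amacrine class of *Ctnnb1* cKO, where it had 0.176 UMIs per *Cx3cr1* UMI against 0.0871 in microglia. It was above the microglial ratio in 12 pairs of class and library, among them amacrine cells of WT (1.69 against 0.515) and *Tspan12* KO (1.80 against 0.288) and rods, cones, bipolar cells and Müller glia of both these libraries, at 3.84 to 19.9 CPM. *Med12l*, the gene *P2ry12* lies within, stood at 44.1 CPM in the amacrine cells of *Ctnnb1* cKO, and its part in these counts was not tested.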

How the results depend on the processing

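The ratio of the summed genes between *Tspan12* KO and WT, 0.05 as reported, turned to −0.024 with TMM scaling and −0.055 with no doublets removed. That between *Ctnnb1* cKO and WT, −0.16 as reported, was −0.10 with TMM scaling, −0.078 as a mean over cells, −0.34 with no doublets removed and −0.10 when thinned to 1000 UMIs per cell. The mean over libraries for cycling against resting microglia, −0.18 as reported, was −0.35 with TMM scaling and −0.057 with no doublets removed. That for chemokine-high microglia, −0.02 as reported, was 0.038 with TMM scaling, 0.090 as a mean over cells, 0.27 with no doublets removed, 0.15 when thinned, −0.054 at 5% mitochondrial UMIs and −0.064 without the 2 subclusters. That for macrophages, −0.95 as reported, was −1.04 with TMM scaling, −1.05 with the 9 genes kept in clustering, −1.05 at a clustering resolution of 0.5 and −1.02 at 2. With no doublets removed in *Ctnnb1* cKO, cycling against resting microglia turned to 0.073 for the sum and 0.067 for *Cx3cr1*, and chemokine-high against resting to 0.36 for the sum, 0.00056 for *P2ry13* and 0.13 for *Olfml3*; the last comparison turned to 0.094 for the sum with TMM scaling, and *Cx3cr1* in WT to −0.016 without the 2 subclusters. The cause was not tested. Over all settings *Gpr34* in *Ctnnb1* cKO against WT ran from −2.83 to −2.53, *P2ry12* from −1.80 to −1.43, *Olfml3* from −1.42 to −1.25 and *Cx3cr1* from 0.82 to 1.31, and *Sall1* in macrophages from −4.36 to −2.68. The counts of the 9 genes past 2-fold were the same with a minimum of 10 UMIs or none. Leaving out a replicate was not possible, since each genotype has 1 library. No paired analysis was possible because there is 1 library per genotype. Levels near 3 UMIs, such as those of the 19 macrophages of *Tspan12* KO, are limited by depth.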
